A study of Mus musculus with 4 samples.

Results

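Enteroendocrine cells are the hormone-secreting cells of the gut epithelium, and 142 of the 22679 cell barcodes sequenced from the distal jejunum of 4 mice met the rule used here to find them. Members were chosen by their own UMI counts, so the levels of the chosen genes are a description. A cell was taken when at most 20% of its UMIs (unique molecular identifiers, each standing for 1 captured RNA molecule) came from mitochondrially encoded genes, when it held at least 1 UMI of the epithelial gene Epcam, and when it held 2 or more UMIs of each of 3 or more of 6 genes, namely Chga, Chgb, Neurod1, Cck, Sct and Tph1. The mice were 2 Control animals (Foxc1fl/fl;Foxc2fl/fl) and 2 EC-Foxc-DKO animals (Cdh5-CreERT2;Foxc1fl/fl;Foxc2fl/fl), all sampled 18.5 h after ischemia/reperfusion (I/R) of the small intestine, in which the superior mesenteric artery was clamped and then released. All were adult males, Cdh5 drives the Cre recombinase in endothelial cells after tamoxifen, the floxed alleles were carried by both groups, and each mouse gave 1 single-cell library. There was no uninjured group, so every value below describes tissue after I/R. They are called Control 1, Control 2, EC-Foxc-DKO 1 and EC-Foxc-DKO 2 below, and sets of 4 values follow that order.

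The labels were checked on the genes of the deletion. Transcripts of Cre were counted 0, 0, 8 and 5 times over all barcodes, and no enteroendocrine cell held a UMI of Cre, Foxc1 or Foxc2. Over all barcodes Foxc1 had 10, 20, 8 and 5 UMIs. Among cells with at most 20% mitochondrial UMIs and at least 1 UMI of the endothelial gene Pecam1, some of which were also Epcam cells, it had 5 UMIs in 137 cells, 12 in 129, 2 in 520 and 2 in 170, lower per cell in both EC-Foxc-DKO libraries. Foxc2 had 0 UMIs in those cells of every library, and whether the counted 3′ end lies in the deleted part was not checked here. The libraries held 51 cell barcodes in common, none of them an enteroendocrine cell. Of the 142 cells, 10 lay among the highest doublet scores of their library, and no cell was removed for its score.

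Enteroendocrine cells arise in the crypts from progenitors that switch on the transcription factor Neurog3 and then Neurod1, and they store peptides or serotonin in dense-core granules that fuse with the membrane when food, bile or irritants reach the lumen. Classical histology named them by product, with S cells for secretin, I cells for cholecystokinin, K cells for the glucose-dependent insulinotropic polypeptide, L cells for the glucagon-like peptides and peptide YY, N cells for neurotensin, D cells for somatostatin, X cells for ghrelin, and enterochromaffin cells for serotonin. Single cells often carry several of these products, and secretin is made by several of the classes.

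The mice gave 45, 7, 46 and 44 enteroendocrine cells. Control 2 therefore rests on few cells, and its library also held the fewest Epcam cells, 342 against 2666, 2490 and 1246 in the other libraries. Of the Epcam cells, 1.69% (exact 95% binomial interval 1.23 to 2.25), 2.05% (0.827 to 4.17), 1.85% (1.36 to 2.46) and 3.53% (2.58 to 4.71) were enteroendocrine. EC-Foxc-DKO 2 had the highest share, but the wide interval of Control 2 overlapped those of all other mice, and the intervals cover counting error only. The means were 1.87% ± 0.254 (SD, n = 2) in Control and 2.69% ± 1.19 (SD, n = 2) in EC-Foxc-DKO mice, a difference of 0.822 percentage points against a pooled SD of 0.861. With 2 mice in each genotype the smallest p that an exact permutation can reach is 0.333, and no test was run. With the mitochondrial limit at 10% the difference was -0.044 points, and Control 2 (3.15%, 5 of 159 cells) and EC-Foxc-DKO 2 (3.11%) were the highest. Without EC-Foxc-DKO 2 it was -0.0205 points, and without EC-Foxc-DKO 1 it was 1.66 points. The limit of 20% had removed 8, 3, 8 and 15 cells that met the gene rule.

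**Figure D1:**
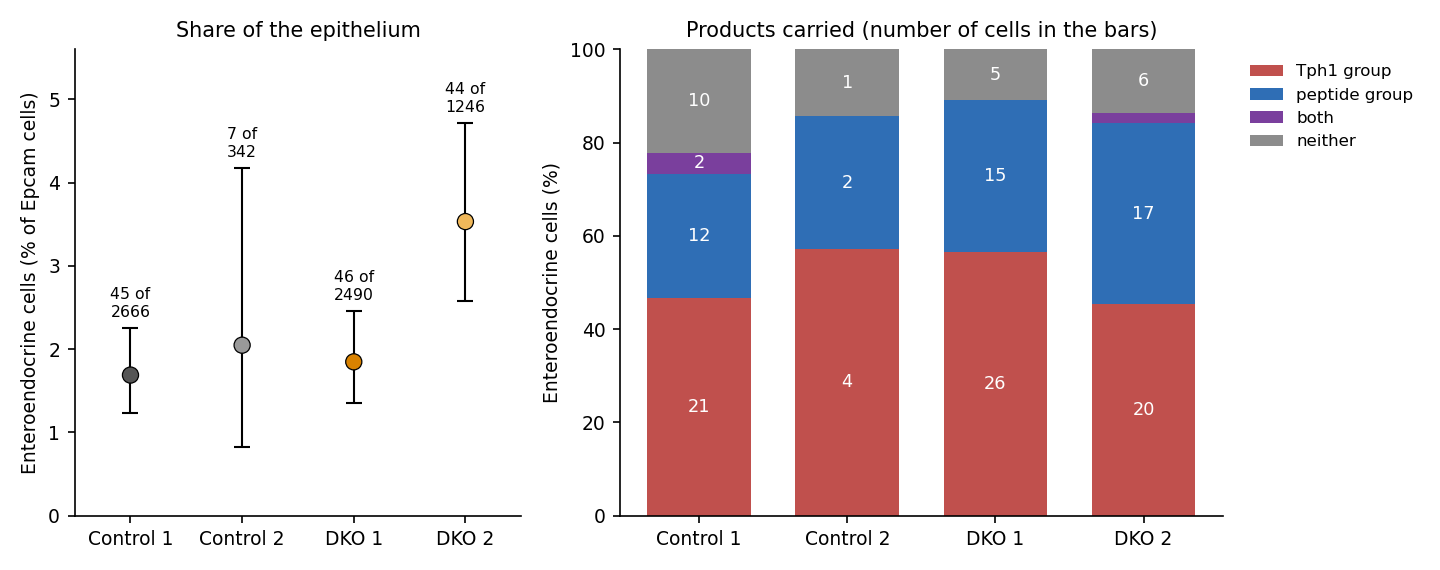
Left, the share of enteroendocrine cells among Epcam cells (%, y axis) in each mouse (x axis), with exact 95% binomial intervals and the numbers of cells; EC-Foxc-DKO 2 lies highest at 3.53%. Right, the percentage of each mouse's enteroendocrine cells by group, with the numbers of cells in the bars. Cells carried Tph1, any of Cck, Gip, Pyy, Nts, Ghrl and Gcg (the peptide group), both or neither. Sct and Tac1 were not used for these groups. The Tph1 group was the largest in each mouse.

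Most cells lay well inside the rule. Of the 142 cells, 107 passed 5 of the 6 genes, 5 passed all 6, 19 passed 4 and 11 passed only 3. The 11 cells just inside the line held a median of 22 UMIs over the 6 genes and the 123 Epcam cells just outside it, with 2 genes, a median of 6 UMIs, against 506 in the cells with 5 genes. Both sets at the line were deep, with medians of 31330 and 31825 total UMIs, where the cells with 5 genes had a median of 10947. Over all enteroendocrine cells the median depth was 13247, 18410, 10508.5 and 10787 UMIs per cell, and the range was 1454 to 84743.

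The label was checked on the genes of the secretory granule. Of 15 genes for granule cargo, prohormone processing and granule release, 14 were at least 4 times higher in enteroendocrine than in other Epcam cells in each of the 4 mice, where 1.69% of all 14884 genes with a UMI were, and since the rule used 2 of these genes and drew the line between the 2 sets of cells, this count is a description without a test. Chromogranin B, Chgb, an acidic granule protein, stood at 15221, 27696, 11407 and 14694 CPM (its UMI number scaled to a total of 1000000 in the same cells) and in the other Epcam cells at 2.89, 15.3, 2.82 and 1.72 CPM. The prohormone convertase Pcsk1, which cuts peptide precursors, stood at 548, 637, 404 and 385 CPM against 1.54, 2.51, 2.87 and 1.83 CPM. Its relative Pcsk2, which in other tissues completes the cutting of proglucagon to glucagon, was the exception, with 2 enteroendocrine cells holding a UMI of it. Carboxypeptidase E, Cpe, which trims the cut peptides, was at 807, 948, 660 and 758 CPM, at least 63.3 times the level in the other cells of the same mouse. The granule membrane proteins Ptprn and Resp18 were at 182 to 210 and 288 to 367 CPM, and at most 0.245 CPM elsewhere in the epithelium. Chgb, Pcsk1 and Cpe were lower in both EC-Foxc-DKO mice than in both Control mice, but none passed the test of genotypes given below, with log2 fold changes of -0.57 (SE 0.55), -0.45 (SE 0.41) and -0.18 (SE 0.418).

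**Figure D2:**
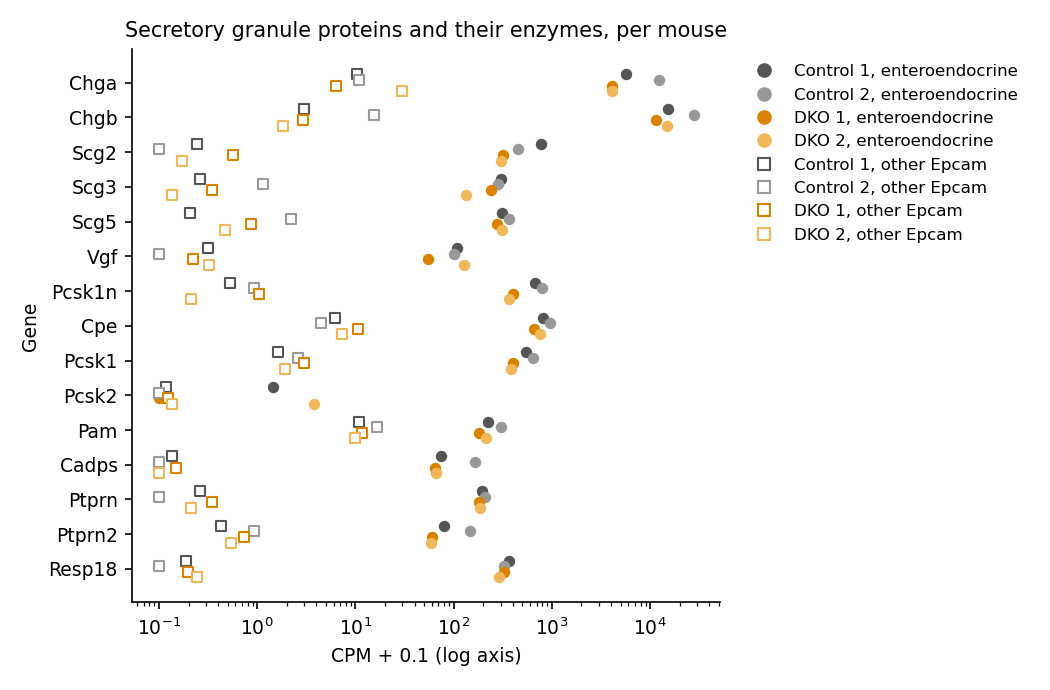
CPM + 0.1 on a log axis (x) for 15 granule genes (y), with 1 point per mouse; filled circles are enteroendocrine cells and open squares other Epcam cells. Of the 15 genes, 14 are apart by at least 4 times in every mouse, and Pcsk2 is at or near 0 in both.

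Among 26 transcription factors of the endocrine lineage, 15 were at least 4 times higher in every mouse, where 1.69% of all genes were, and Neurod1, a gene of the rule, is among the 15. Neurod1, which the rule used, was at 830, 598, 644 and 833 CPM. Insm1, a repressor that keeps endocrine cells differentiated, was at 173, 249, 93.6 and 248 CPM and at no more than 1.8 CPM in other Epcam cells. Pax6, Rfx6, Fev, Nkx2-2, St18 and Myt1, which act along the same path, all belonged to the 15. Neurog3, the factor of the progenitors, had 18 UMIs in 4 enteroendocrine cells, of which 12 were in 1 cell of EC-Foxc-DKO 2, and 58 UMIs in 4 of the other Epcam cells. Of 26 genes for excitability and vesicle release, 11 met the line that 1.69% of all genes met, among them the calcium channel subunit Cacna1a (286, 396, 216 and 154 CPM), the sodium channel Scn3a (231, 326, 168 and 116 CPM), the fusion protein Snap25 and the calcium sensor Syt7. The mechanically gated channel Piezo2, known from enterochromaffin cells, had 1 UMI in 1 enteroendocrine cell, and the sodium channel Scn9a had none.

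Outside these lists, the 15 genes with the largest smallest fold over the 4 mice were Serpina1c, Scgn, Rbp4, Bex2, Adgrg4, Tpbg, Stxbp5l, Ambp, Trpm2, Syn2, Reg4, Vwa5b2, Celf3, Serpina1e and Rimbp2. Reg4, a secreted lectin, was the most abundant of them at 5305, 5541, 6138 and 8901 CPM and 4.22, 20.9, 4.31 and 44.9 CPM in other Epcam cells. Scgn, a calcium-binding protein of hormone cells, and Rbp4, the carrier of retinol, stood at 74 to 342 and 105 to 584 CPM and were found in 39 and 38 of the 142 cells. Scgn had 1 UMI in the cells described below as the Tph1 group and 271 in the peptide group, and Rbp4 0 and 747. Serpina1c and Serpina1e are near-identical copies of the antitrypsin gene, so that reads could be split between them, and their levels are uncertain. In the other direction, 16 genes (0.107% of those tested) were at least 4 times lower in enteroendocrine cells in every mouse.

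Immediate-early genes, which cells switch on within minutes of a stimulus, were measured because the tissue had been injured and then dissociated by enzymes. Summed over 18 of them the level was 10361, 9232, 6903 and 9092 CPM in enteroendocrine cells and 6068, 4389, 5215 and 3560 CPM in the other Epcam cells. Egr1 was the only one of the 18 at least 4 times higher in each mouse, at 1020, 1088, 622 and 930 CPM against 136, 124, 129 and 120 CPM, and Fos, at 917 to 1204 CPM, was within 1.93 times of the other cells. The median fold over the other Epcam cells was 1.86 for the 18 genes, and 1.69% of all genes met the line. None of 19 endoplasmic reticulum stress genes, 11 heat shock genes, 15 hypoxia and glycolysis genes, 15 interferon and class I antigen genes and 13 mitochondrially encoded genes met the line, a count near that share, and the median fold over the other Epcam cells was 1.19, 1.03, 1.16, 0.591 and 0.905 in that order, where the median over all genes was 1.26.

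The products were then read cell by cell. A cell was counted as carrying a product when it held at least 3 UMIs and at least 1000 CPM of its gene. Sct, which encodes secretin, the peptide that calls for bicarbonate from the pancreas, was carried by 122 of the 142 cells (85.9%), and by 38 of 45, 6 of 7, 41 of 46 and 37 of 44 cells of the mice. Tph1, the enzyme that starts serotonin synthesis, was carried by 74 cells (52.1%), namely 23, 4, 26 and 21. Cck, cholecystokinin, which contracts the gallbladder, was carried by 28 cells (6, 1, 8 and 13), and Nts, neurotensin, by 24 cells (9, 0, 10 and 5). Pyy, peptide YY, a brake on gut motility and appetite, was carried by 22 cells, Tac1, the precursor of substance P, by 21, and Gip, which raises insulin secretion after a meal, by 19. Ghrl, ghrelin, was carried by 9 cells and Gcg, the precursor of the glucagon-like peptides, by 6. None carried Sst or Iapp, and the hormone genes Insl5, Vip, Penk and Ppy had no UMI in any enteroendocrine cell.

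The same line was applied to the 6602 other Epcam cells as background. It was passed by 64 of them for Sct (0.969%), by 3 for Sst, by 2 for Gip, by 1 each for Nts, Ghrl and Iapp, and by none for Tph1, Cck, Pyy, Gcg and Tac1. At least 1 UMI of Sct was found in 38.5% of the other Epcam cells, at a summed level of 51.8, 67.4, 62.9 and 39.9 CPM, so that single Sct UMIs were not read as expression. At the 2 UMIs that the rule uses, 18.5% of the other Epcam cells passed for Sct and 5.54% for Chga. For each of the other rule genes at most 0.36% did. Enteroendocrine cells held 22591, 31589, 23527 and 25720 CPM of Sct. The median depth of the other cells was 16112, 8159, 11827.5 and 20812.5 UMIs. How many cells lie near the line differed between products, with 31 cells between 500 and 2000 CPM for Tph1, 27 for Tac1 and 23 for Sct, and 2 for Gip and 1 for Nts.

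The share of RNA that carriers gave to a peptide hormone was large for Gip and Nts and smaller for the others. The median level in carriers was 226948 CPM for Gip (n = 19 cells), 78566 CPM for Nts (n = 24), 22529 CPM for Ghrl (n = 9), 22297 CPM for Pyy (n = 22), 16597 CPM for Cck (n = 28) and 1943 CPM for Gcg (n = 6). In 1 cell Nts took 40.4% of all UMIs, and in another Gip took 34%. Tph1 and Tac1 were lower, at medians of 2812 and 1922 CPM in their carriers. UMI counts at 3′ ends count molecules whatever the length of the gene, but capture can differ between genes, so these levels between genes are approximate.

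Carrying Tph1 and carrying any of 6 peptide hormones were nearly separate, while Tac1, left out of the 6, was carried together with Tph1 in 19 of its 21 carriers. Of the 142 cells, 71 carried Tph1 and none of Cck, Gip, Pyy, Nts, Ghrl and Gcg (the Tph1 group), 46 carried at least 1 of those 6 and not Tph1 (the peptide group), 3 carried both and 22 neither. The mice held 21, 4, 26 and 20 cells of the Tph1 group and 12, 2, 15 and 17 cells of the peptide group. As mean shares over the 4 mice these were 51.5% ± 6.24 (SD, n = 4) and 31.6% ± 5.29 (SD, n = 4). In the mice the Tph1 group made up 46.7%, 57.1%, 56.5% and 45.5%, which overlapped between the genotypes, and the peptide group 26.7%, 28.6%, 32.6% and 38.6%, with both EC-Foxc-DKO mice above both Control mice. The split was defined after the values had been seen, and it carries no test. In the Tph1 group the 6 peptides together reached at most 739 CPM in any cell and were at 0 in 53 of 71 cells. In the peptide group Tph1 was at 0 in 40 of 46 cells, and the highest value was 970 CPM. Both highest values are limited by the line that defined the groups. The 3 cells with both were 2 of Control 1 and 1 of EC-Foxc-DKO 2, and their peptide sums of 1058 to 6838 CPM lay below the peptide group's median of 179848 CPM.

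**Figure D3:**
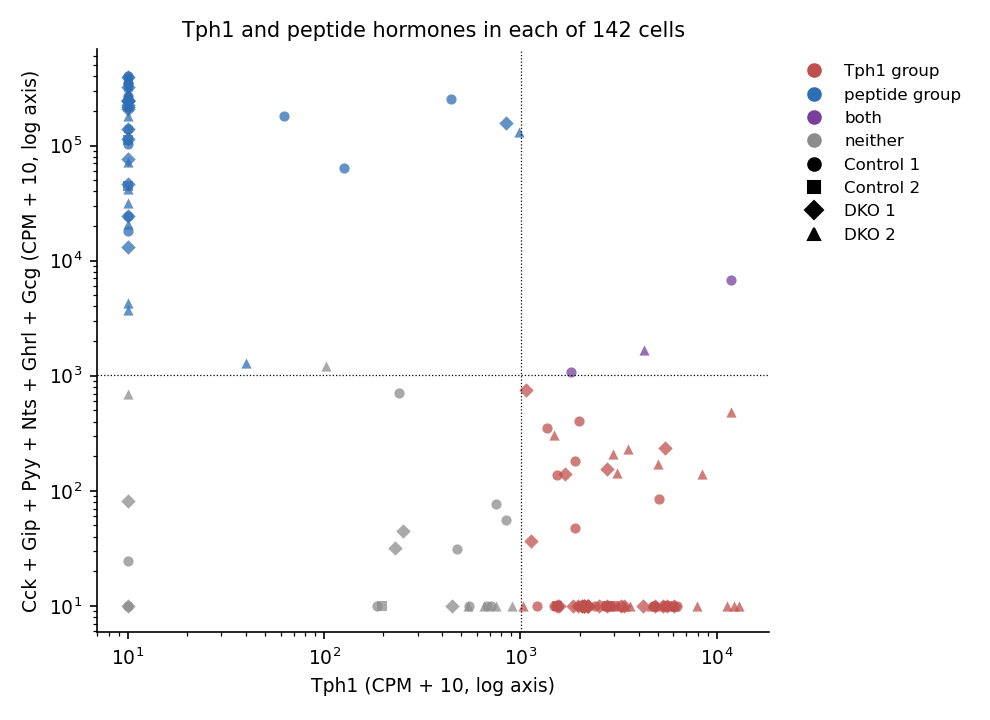
Each point is 1 of the 142 enteroendocrine cells, with Tph1 (CPM + 10, log axis, x) against the sum of 6 peptide hormones (CPM + 10, log axis, y), coloured by group and shaped by mouse; dotted lines mark 1000 CPM. Cells lie along the 2 axes, and 3 cells pass both lines.

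Sct ran through both groups at different levels. It was carried by 67 of the 71 cells of the Tph1 group and 42 of the 46 cells of the peptide group. Its level was 8115, 6226, 6505 and 8448 CPM in the Tph1 group and 59919, 109385, 62230 and 50000 CPM in the peptide group, without overlap between these sums per mouse. Single cells overlapped, at 394 to 54386 CPM in the Tph1 group and 307 to 246767 CPM in the peptide group. Pooled over mice the peptide group was 8.12 times higher. The 11 products together took 1.19%, 1.2%, 0.949% and 1.44% of the UMIs of the Tph1 group and 29%, 18.3%, 20.9% and 20.6% of those of the peptide group. The groups also differed in depth, with a median of 6992 UMIs per cell in the Tph1 group and 16505 in the peptide group. After every cell was thinned to 3000 UMIs, which left out 7 shallower cells, the mean shares were 50.6% and 31.8%.

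Within the Tph1 group 18 of 71 cells also carried Tac1, and 16 of those carried Sct as well. The median Sct level was 5448 CPM in the Tph1 cells with Tac1 and 7191 CPM in those without it, and the median Tph1 level was 2566 and 2807 CPM. At least 1 UMI of Tac1 was found in 57 of the 71 cells, so the line at 1000 CPM cuts through a range and does not separate types. Within the peptide group the hormones overlapped in steps. Of the 19 Gip carriers, 15 carried Cck, 9 carried Pyy and 2 carried Nts, and none carried Ghrl, Gcg or Tac1. Of the 24 Nts carriers, 11 carried Cck, 10 carried Pyy, 4 carried Gcg and 4 carried Ghrl. All 6 Gcg carriers also carried Sct and Cck, and 5 of them Pyy. The most frequent sets were Sct with Tph1 (51 cells), Sct with Tac1 and Tph1 (16 cells), Sct with Nts (10 cells) and Sct with Cck, Gip and Pyy (8 cells). Of the cells without Tph1, 17 carried 1 of the 6 peptides, 8 carried 2, 13 carried 3, 7 carried 4 and 1 carried 5.

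Ranked by the product with the highest level, 78 cells were led by Sct, 14 by Gip, 13 by Nts, 12 by Tph1, 4 by Cck, 4 by Tac1, 3 by Ghrl and 3 by Pyy, and 11 carried none. The Gip-led cells came from Control 1 (2), EC-Foxc-DKO 1 (5) and EC-Foxc-DKO 2 (7), and the Nts-led cells from Control 1 (5), EC-Foxc-DKO 1 (7) and EC-Foxc-DKO 2 (1). Beside Gip itself the genes with the highest ratio over the other enteroendocrine cells in Gip-led cells were Cnr1, a cannabinoid receptor, at a mean of 339.6 against 5.57 CPM, Gatm, an enzyme of creatine synthesis, Sphkap and Rgs4, and each was found in 11 to 13 of the 14 cells. In Nts-led cells they were Rassf9 (298.8 against 2.56 CPM, in 9 of 13 cells), Adgrd1, Shf and Pmp22, the last in 7 of 13 cells with 58.5% of its UMIs in 1 cell. In the Sct-led cells the highest ratios belonged to the antibody genes Jchain, Igha and Igkc, but 1 cell held 99.6%, 99% and 97.8% of their UMIs, and the next genes were Serpina1c and Igfbp4, found in 40 and 46 of the 78 cells. In the Tph1-led cells only Trpa1, an irritant receptor, at 575.5 against 71.7 CPM, was spread over more than 3 of the 12 cells. These genes come from the cells that defined each class and are a description.

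The 5′ flanks of 4 product genes are shown, namely Sct, which most cells of both groups carried, Tph1, which defines the Tph1 group, and Cck and Gip, which are among the 6 peptides that define the peptide group. Each is the 250 bases before the transcription start in RefSeq (build GRCm38.p6), written 5′ to 3′ on the strand of the gene. Capitals mark CAGNTG, the core recognized by basic helix-loop-helix factors such as NEUROD1 and its partners, searched on both strands, and TATAAA, also searched on both strands.
Sct, chr7:141279134-141279383, minus strand: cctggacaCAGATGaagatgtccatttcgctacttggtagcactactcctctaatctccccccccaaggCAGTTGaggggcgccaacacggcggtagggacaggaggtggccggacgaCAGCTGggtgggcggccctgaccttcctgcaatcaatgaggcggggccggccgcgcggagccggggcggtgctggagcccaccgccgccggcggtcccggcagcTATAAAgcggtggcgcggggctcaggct
Cck, chr9:121495695-121495944, minus strand: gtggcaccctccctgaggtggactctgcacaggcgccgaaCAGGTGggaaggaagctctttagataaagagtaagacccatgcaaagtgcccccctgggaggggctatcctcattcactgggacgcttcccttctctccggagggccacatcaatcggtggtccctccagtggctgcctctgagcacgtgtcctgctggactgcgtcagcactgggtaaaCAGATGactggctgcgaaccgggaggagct
Gip, chr11:96024295-96024544, plus strand: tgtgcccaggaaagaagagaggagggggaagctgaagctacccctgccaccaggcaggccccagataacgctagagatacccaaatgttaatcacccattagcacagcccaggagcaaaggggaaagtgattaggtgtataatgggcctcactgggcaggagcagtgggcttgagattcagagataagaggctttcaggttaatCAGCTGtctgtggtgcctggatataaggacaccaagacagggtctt
Tph1, chr7:46672538-46672787, minus strand, the outer of 2 starts: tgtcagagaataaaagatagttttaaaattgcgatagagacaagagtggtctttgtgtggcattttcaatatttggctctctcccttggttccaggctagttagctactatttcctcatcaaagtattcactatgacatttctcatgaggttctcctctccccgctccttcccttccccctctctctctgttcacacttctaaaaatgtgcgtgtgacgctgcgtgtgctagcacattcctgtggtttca
The flank of Sct held 3 matches of CAGNTG and 1 of TATAAA that ended 23 bases before the start, Cck held 2 of CAGNTG and Gip 1, and Tph1 held neither motif. Among the 32536 distinct flanks of the same length, 44.8% held CAGNTG and 12.3% TATAAA. TGACGTCA, the site of cyclic AMP response factors and its own reverse complement, was in none of the 4 and in 1.56% of all. A match of letters is a description, and none of these flanks was measured for binding here.

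Beyond the products, 64 genes (0.448% of 14294) were at least 4 times higher in the Tph1 group, lowest mouse against highest, and 42 genes (0.294%) in the peptide group, over the 3 mice with at least 10 cells in each group, that is all but Control 2. With the UMIs of the 11 products left out of the totals the counts were 49 and 58, and they held 49 of the 64 and all 42 genes. These shares count genes of the cells that were split and are given without a test.

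Of the 26 transcription factors, 3 met the line in the Tph1 group, where 0.448% of all genes did, 3 in the peptide group, where 0.294% did, and the other 20 in neither. Lmx1a, a factor of enterochromaffin cells, stood at 280, 167 and 206 CPM in the Tph1 group of Control 1, EC-Foxc-DKO 1 and EC-Foxc-DKO 2, and had 162 UMIs in that group of all 4 mice against 0 in the peptide group. Foxa1 was at 336, 239 and 212 CPM against 24.5, 33.2 and 29.4 CPM, and Sox4 at 588, 479 and 694 CPM against 85.6, 99.5 and 92.4 CPM. In EC-Foxc-DKO 1 the products took 20.9% of the UMIs of the peptide group and 0.949% of those of the Tph1 group. With product UMIs left out of the totals Sox4 fell below the line. Control 2, with 4 and 2 cells, ran the other way for Sox4, at 295.7 and 354 CPM. In the other direction Isl1, a factor of several peptide lineages, had 0 UMIs in the Tph1 group and was at 314, 206 and 538 CPM in the peptide group, where 327 UMIs were counted. Etv1 had 3 UMIs against 137. Neurod1, Insm1, Fev and Nkx2-2 did not separate the groups by this line, although Fev had been listed with Lmx1a as an enterochromaffin marker. Neurod1 was at 1219, 746 and 1211 CPM in the Tph1 group and 1183, 988 and 882 CPM in the peptide group, and Insm1, Fev and Nkx2-2 likewise overlapped.

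Genes of serotonin handling lay on the Tph1 side only in part. Of 10 such genes, 3 met the line in the Tph1 group, where 0.448% of all genes did. They were Tph1 itself, which defines the group, the vesicular monoamine carrier Slc18a1 (481, 491 and 382 CPM against 81.6, 59 and 42 CPM) and the amino acid carrier Slc38a11, with 153 UMIs against 0. Products took 29% of the UMIs of the peptide group in Control 1. With product UMIs left out of the totals Slc18a1 fell below the line. Slc18a2, the second vesicular carrier, had 18 UMIs against 0 and fell below 20 CPM in 1 mouse. Ddc, which completes serotonin synthesis, was present in both groups, at 682, 472 and 670 CPM against 367, 398 and 521 CPM, and so was Gch1, which makes the cofactor of TPH1. Chga and Chgb were higher in the Tph1 group, Chga at 14321, 8794 and 9077 CPM against 1623, 962 and 428 CPM, whereas Scg2, secretogranin II, was at 23.4, 3.15 and 5.88 CPM against 2308, 954 and 680 CPM. Reg4 stood at 14181, 15270 and 26354 CPM in the Tph1 group and at most 12.2 CPM in the peptide group, and Afp, alpha-fetoprotein, had 1575 UMIs against 0. Afp and the genes of the next 2 sentences that are in no list were chosen after their values had been seen. Cartpt, a neuropeptide precursor, had 221 UMIs in the Tph1 group and 0 in the peptide group. Fabp5, a fatty acid binding protein, had 7 UMIs against 2706, and Th, the rate-limiting enzyme of catecholamine synthesis, 0 against 41.

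Receptors for nutrients and lipids were compared in the same way. Of 19 sensor genes, 4 met the line in the peptide group, where 0.294% of all genes did, and none in the Tph1 group, where 0.448% did. The long-chain fatty acid receptor Ffar1 was at 399.7, 229 and 155 CPM in the peptide group and had 1 UMI in the Tph1 group. Gpr119, a receptor for lipid amides, had 34 UMIs against 0, the short-chain fatty acid receptor Ffar3 36 against 2, both in Control 2, and Cnr1 71 against 2. Ffar2, the other short-chain fatty acid receptor, ran the other way without meeting the line, at 462, 324 and 353 CPM in the Tph1 group and 155, 0 and 189 CPM in the peptide group. Trpa1 was at 126, 69.3 and 306 CPM in the Tph1 group against 8.16, 29.5 and 4.2 CPM, and Glp1r at 177, 69.3 and 5.88 CPM against 0, 0 and 4.2 CPM. The sulfonylurea receptor Abcc8, a subunit of the ATP-sensitive potassium channel, had 0 UMIs in the Tph1 group and stood at 97.9, 81.1 and 105 CPM in the peptide group, and its pore Kcnj11 had 0 UMIs against 19. Of the 26 genes for excitability and vesicle release, 2 met the line in the Tph1 group (0.448% of all genes), the vesicle proteins Snap25 and Rab3c, and 1 in the peptide group (0.294% of all genes), Abcc8.

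**Figure D4:**
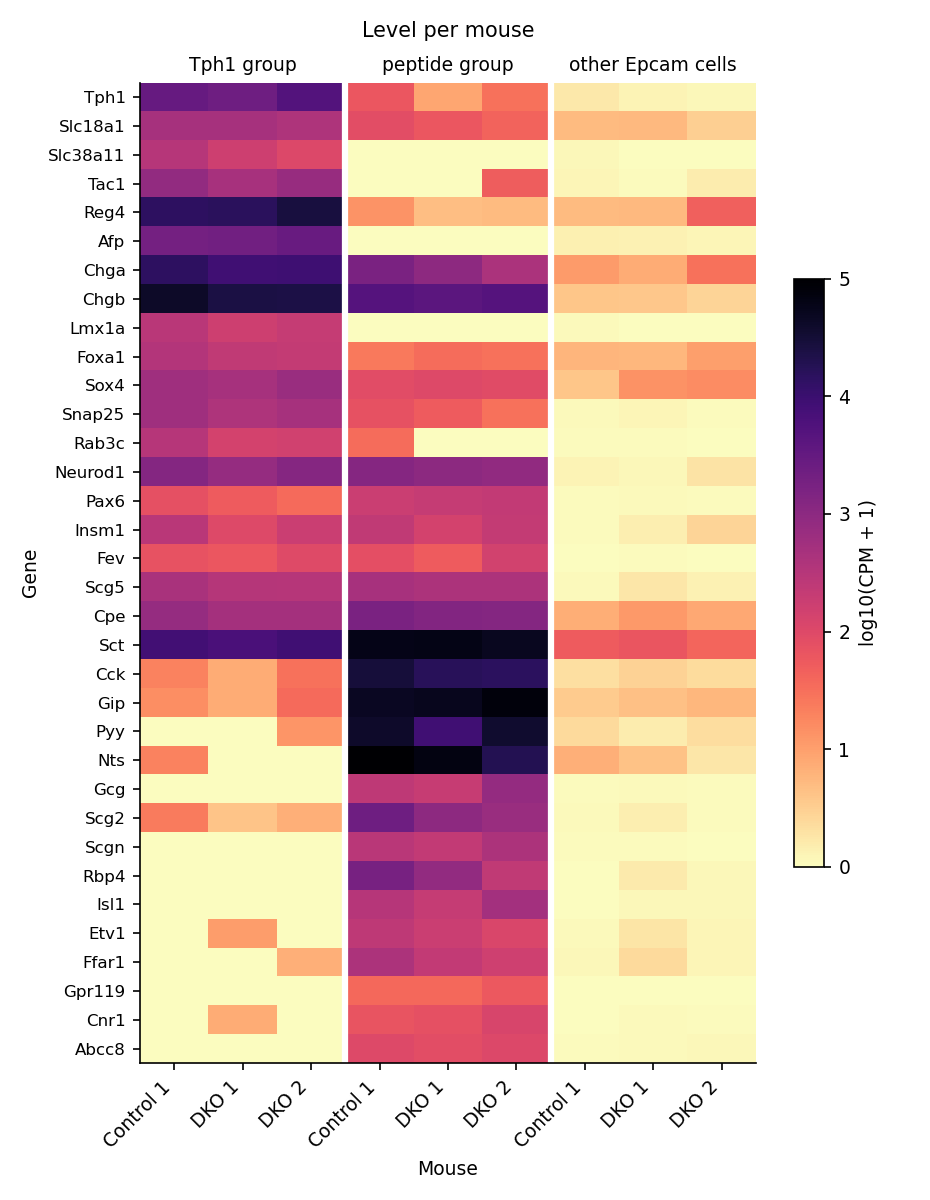
Colour gives log10(CPM + 1) of 34 genes (y) in the Tph1 group, the peptide group and the other Epcam cells of 3 mice (x); Control 2 is left out, with 4 and 2 cells in the groups. Lmx1a and Slc38a11 are at 0 in the peptide group, and Isl1 and Abcc8 at 0 in the Tph1 group, in each of the 3 mice.

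The 22 cells that carried neither kind of product stood apart from both groups. They came as 10, 1, 5 and 6 cells from the mice, and 11 of them carried no product at all while the rest carried Sct, Tac1 or both. Their median depth was 26503 UMIs, their level of the 6 rule genes a median of 6216 CPM against 64551 in the Tph1 group and 56891 in the peptide group, and their summed level of 11 enterocyte genes a median of 94976 CPM. That last value was 7238 CPM in the Tph1 group, 5226 CPM in the peptide group and 114694 CPM in the other Epcam cells. Of the 22 cells, 4 were among the highest doublet scores and 4 held 2 or more UMIs in at least 2 of 16 immune genes. The part of doublets and of enterocyte RNA in these cells was not tested.

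Markers of other cell types were counted in all enteroendocrine cells. Summed enterocyte genes were at 55290, 25302, 90170 and 47350 CPM, led by Fabp2, the intestinal fatty acid binding protein, against 79841 to 133035 CPM in the other Epcam cells. At least 3 of these genes had 2 or more UMIs in 135 enteroendocrine cells (95.1%), against 91.4% of the other Epcam cells. Of the 135 cells, 68 were in the Tph1 group and 43 in the peptide group. Of the 16 immune genes, 15 had a UMI, the T cell gene Cd3g none, and the sum was 311, 62.2, 366 and 1527 CPM, of which Jchain in 1 cell of EC-Foxc-DKO 2 made up most. Of 10 genes for stroma, endothelium and glia, 5 had a UMI and Plvap, Cdh5, Dcn, Myh11 and Sox10 none. The 10 tuft cell genes, which mark the chemosensory cells of the epithelium, summed to 526, 769, 304 and 9.18 CPM, and 6 cells (3, 1, 2 and 0) held 2 or more UMIs of at least 3 of them, 4.23% against 3.67% of the other Epcam cells. Of 8 genes of crypt and dividing cells, 7 had a UMI, the stem cell gene Lgr5 none, and the sum was 6.71, 7.77, 2.46 and 40.4 CPM against 74.3 to 390 CPM. Goblet genes summed to 1343 to 2391 CPM, mostly Tff3, against 3303 to 9779 CPM in the other Epcam cells, but 34 enteroendocrine cells (23.9%) held 2 or more UMIs of at least 3 of the 7 genes, against 5.42% of the other Epcam cells, with 18 of the 34 in the Tph1 group and 9 in the peptide group. Paneth genes summed to 4.03 to 106 CPM. The 5 erythroid genes summed to at most 13.6 CPM. Without the 5 cells that held 2 or more UMIs in at least 2 immune genes the mean share of the Tph1 group was 53% and that of the peptide group 32%. The part of the other cell types in the results was not tested.

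Somatostatin cells lay outside the rule. Of the other Epcam cells, 3 carried Sst, with 1782 and 189 UMIs in cells of EC-Foxc-DKO 1 and 389 UMIs in a cell of EC-Foxc-DKO 2. Each held 5, 1 and 2 UMIs of Hhex, the factor of somatostatin cells, in that order. Each passed only Chgb and Sct of the 6 genes, with 17, 8 and 5 UMIs of Chgb and 33, 7 and 5 of Sct. The Control libraries held no such cell, and with 3 cells in all no comparison was made.

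The comparison of genotypes asked whether deleting Foxc1 and Foxc2 in the endothelium changed the enteroendocrine cells after I/R. UMIs were summed per mouse, giving 744908, 128685, 811664 and 544988 UMIs, and tested with edgeR's quasi-likelihood test. Of these UMIs, 256933, 37325, 222686 and 122269 came from the 22 cells with neither kind of product, whose enterocyte gene level is given above. The part of these cells in the test was not tested. Of 7092 genes, none (0.00%) passed a Benjamini-Hochberg adjusted p of 0.05 in either direction. At an unadjusted p under 0.05 there were 139 genes, 89 (1.25%) higher and 50 (0.705%) lower in EC-Foxc-DKO mice, and DESeq2 called 1 gene, Reg3b, which was higher. In simulated data of these libraries the test recovered 3.45% of genes changed by 1 log2 unit, 22.8% at 2 and 90% at 3, and it made 2 false calls. Leaving out EC-Foxc-DKO 1, which holds 1 mouse in that genotype and assumes that it varies like the Control mice, gave 84 calls, and leaving out each of the other mice gave 1 to 13. The other Epcam cells likewise gave 0 of 14324 calls with edgeR, and at an unadjusted p under 0.05 there were 65 genes (0.454%) higher and 15 (0.105%) lower. The edgeR test of the difference between both effects gave 0 of 11678 calls, with 295 genes (2.53%) above and 113 (0.968%) below at that unadjusted level. With no mouse block and no replicate block it gave 0 calls and 129 genes at that level, against 408 in the main fit.

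The genes with the lowest p among the higher ones were Dmbt1, Reg3b, Ly6d, Bcl2l15 and 1110038B12Rik, all at an edgeR adjusted p of 1.00. Reg3b (GRCm38 chr6:78370657-78373466, plus strand), a bactericidal lectin of enterocytes, stood at 1831, 941, 10023 and 8324 TMM-normalized CPM, with the 2 EC-Foxc-DKO mice above both Control mice and a log2 fold change of 2.72 (SE 0.566). With DESeq2 it was 2.69 at an adjusted p of 0.00285, and with edgeR it passed with no filter on low genes (adjusted p 0.000859) and without EC-Foxc-DKO 1 (adjusted p 0.0443). At a mitochondrial limit of 10% its log2 fold change was 4.84 with an edgeR adjusted p of 0.998. Its relative Reg3g was at 1062, 66.2, 5081 and 3089 normalized CPM, with a log2 fold change of 2.82 (SE 1.01) that ran from 1.95 (without Control 2) to 5.91 (without Control 1) when 1 mouse was left out. It passed in edgeR without EC-Foxc-DKO 1 (adjusted p 0.0469), without EC-Foxc-DKO 2 (0.0142) and with no filter (0.00027). In the Tph1 group alone Reg3b was at 285, 34.8, 7314 and 6484 CPM, and in the peptide group at 241, 0, 2860 and 2654 CPM, and the groups of mice did not overlap in either. Fitted within the Tph1 group, a choice made after the values had been seen, the log2 fold change was 5.38 with an edgeR adjusted p of 0.256. Within the peptide group, also chosen after the values, it was 4.25 with an edgeR adjusted p of 0.999. In the other Epcam cells Reg3b was at 10252, 10856, 11939 and 34434 CPM, and the summed enterocyte genes given above, which hold Reg3b, were highest in the enteroendocrine cells of EC-Foxc-DKO 1. The part of enterocyte RNA in this result was not tested. Dmbt1, another secreted defence protein, was at 2.78, 0, 35.5 and 128 normalized CPM, with UMIs in 14 cells. The paper lists Dmbt1 as a marker of crypt cells. It had no fitted value with 4 of the 6 genes required, or within the Tph1 group or the peptide group alone. Ly6d was at 4.18, 0, 36.9 and 266 normalized CPM with UMIs in 11 cells, of which 1 held 65. Both passed in edgeR without EC-Foxc-DKO 1 (adjusted p 8.91e-09 for Dmbt1 and 3.71e-11 for Ly6d), without Control 2 (0.0317 for both) and with no filter (8.36e-07 and 2.01e-09). Ly6d, which the paper lists as a marker of follicular B cells, had no fitted value without the cells with immune markers or at the 10% mitochondrial limit. Bcl2l15 passed with no filter (edgeR adjusted p 0.0477), and 1110038B12Rik under none of its 13 alternatives.

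Among the lower genes the lowest p belonged to Serpina1c, Serpina1b, Serpina1e, Serpina1d and March9, again at an edgeR adjusted p of 1.00. Serpina1c (GRCm38 chr12:103894926-103904887, minus strand) was at 382, 588, 123 and 99.1 normalized CPM, with both Control mice above both EC-Foxc-DKO mice and a log2 fold change of -2.11 (SE 0.456), and it passed with no filter on low genes (edgeR adjusted p 0.0301). Serpina1e was at 291, 324, 90.2 and 62.2, Serpina1b at 61.3, 95.6, 16.4 and 15.5, and Serpina1d at 43.2, 22.1, 8.2 and 7.77 normalized CPM. These 4 are copies of 1 gene on chromosome 12 that can share reads, so their 4 values are not independent. In the other Epcam cells Serpina1c was at 0.108, 0, 0 and 0.0366 CPM. Most of it was in the Tph1 group, at 1018, 1200, 274 and 206 CPM there.

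The hormones showed no call with edgeR. Of 20 hormone genes, 8 were abundant enough to be tested, none passed at an adjusted or unadjusted p of 0.05, and their median log2 fold change was 0.05, where that of all 7092 genes was 0.03. Sct was at 23434, 29892, 26091 and 27235 normalized CPM, a log2 fold change of 0.00 (SE 0.535). Gip was at 15978, 8089, 19172 and 36777 normalized CPM, higher in both EC-Foxc-DKO mice, with a log2 fold change of 1.22 (SE 0.623) and an edgeR adjusted p of 1.00, and it rests on 19 carriers. When 1 mouse was left out its log2 fold change ran from 0.69 (without EC-Foxc-DKO 2) to 1.76 (without Control 1), without Control 2 it was 0.81, and at the 10% mitochondrial limit it was 0.60. Gcg had the largest fold among the tested hormones, at 82.2, 7.35, 72.4 and 381 normalized CPM, with a log2 fold change of 2.04 (SE 0.909) and an edgeR adjusted p of 1.00. When 1 mouse was left out it ran from 0.39 (without EC-Foxc-DKO 2) to 4.85 (without Control 1), and it passed the threshold without EC-Foxc-DKO 1 (edgeR adjusted p 0.00264) and with no filter on low genes (edgeR adjusted p 0.0351). Tph1, at 1182, 1294, 1063 and 1959 normalized CPM, and Cck, at 9845, 2258, 5987 and 6938 normalized CPM, overlapped between the genotypes. Of the granule, serotonin and endocrine factor genes, 14, 10 and 20 were tested and none passed at an unadjusted p under 0.05, with median log2 fold changes of -0.49, -0.17 and -0.16. Of the sensor and excitability genes 1 each was lower at that level, Sstr5, a somatostatin receptor (40.3, 23.3, 11.1 and 9.18 CPM), and Rab3b. At that level, which 1.25% of all genes passed as higher and 0.705% as lower, 1 of 9 tested heat shock genes (Hsph1), 1 of 13 hypoxia and glycolysis genes (Pgk1) and 2 of 11 enterocyte genes (Reg3b and Reg3g) were higher, and 1 of 7 tuft cell genes was lower (Dclk1, at 69.8, 85.5, 27.1 and 0 CPM).

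**Figure D5:**
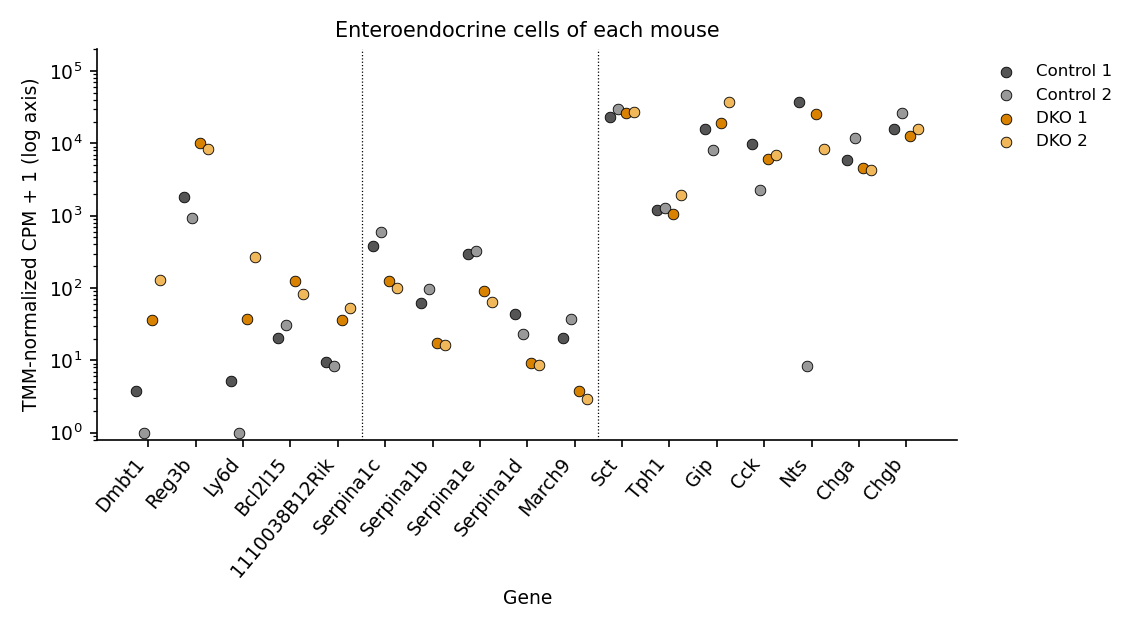
TMM-normalized CPM + 1 on a log axis (y) in the enteroendocrine cells of each mouse for 17 genes (x). From left, the 5 genes with the lowest p among those higher and the 5 among those lower in EC-Foxc-DKO mice, in which the 2 groups of points do not overlap, and 7 product and granule genes; no gene passed the adjusted threshold.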

How the data were processed

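The UMI count matrices of the 4 libraries were deposited by the authors and, per the labels, made with Cell Ranger 4.0.0 on mm10 with Cre added, 32286 features in all. Counts were used as deposited, and a joined table of the same cells was not used. No cell was removed for its doublet score; Scrublet's automatic call marked 123 of 22679 barcodes (0.542%). Counts were summed per mouse and tested with edgeR 4.0.16 (R 4.3.3; filterByExpr, TMM, quasi-likelihood, Benjamini-Hochberg), with DESeq2 1.42.0 as an alternative, in 2 mice against 2. Comparisons of enteroendocrine with other Epcam cells and between product groups were not tested, because the rule and the groups use the same counts. The test was run on simulated data of 6595 genes. Libraries held 15557181 to 72046346 UMIs. Cells and sums were handled in Python 3.11.15 with scanpy 1.11.5. Genes named were those of gene lists, the 5 of lowest p in each direction, the 15 outside the lists of largest smallest fold, and the 5 of highest ratio per leading product with at least 10 cells. The members, lists and rules were chosen with earlier results of these data known. Positions are of GRCm38, and flanks came from RefSeq. A gene of the lists is not reported here.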

Additional observations from a re-analysis of the deposited data

How the results depend on the processing

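The number of genes past the adjusted threshold between genotypes in enteroendocrine cells was 0 and became 7 with 4 of the 6 genes required, 1 with DESeq2, 43 with no filter on low genes, 5 without the cells with immune markers, and 1 to 84 when 1 mouse was left out. It was 0 with upper-quartile scaling, a minimum of 10 UMIs, a mitochondrial limit of 10%, or without the highest doublet scores. The 7 genes and the 5 genes were all lower in EC-Foxc-DKO mice, and the DESeq2 gene was higher. Of the 43 genes, 37 were higher and 6 lower. Leaving out 1 mouse gave 0 to 1 genes in the other Epcam cells and 26 to 47 for the difference of effects. The log2 fold change of Tph1 turned to -0.014 at the 10% limit and ran from -0.20 (without EC-Foxc-DKO replicate 2) to 0.66 (without EC-Foxc-DKO replicate 1) when 1 mouse was left out. The share difference was -0.044 points at the 10% limit and -0.0205 to 1.66 points when 1 mouse was left out (without EC-Foxc-DKO replicate 2 and without EC-Foxc-DKO replicate 1), and the mean share was 1.29% with no mitochondrial limit. The Tph1 group was 38.5% at a line of 2000 CPM, and the peptide group 38.2% at the 10% limit. With a line of 2 times, 428 genes in place of 252 were higher than in other Epcam cells. The causes were not tested. Of the other values, 71 summary results moved by less than the spread between mice or, for counts, by less than 1.5 times, that share difference among them although its sign changed, 185 single-gene results kept their direction and their side of the threshold, and 16 single-gene results passed the threshold under an alternative.

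Replicate numbers are shared by the genotypes, but nothing in the labels pairs the mice. With the replicate number as a block 0 genes passed (164 at an unadjusted p under 0.05), and the deviations of same-numbered mice correlated at 0.174. Control 2 is limited by its 7 cells.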
